A study of Homo sapiens with 12 samples.

Results

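A set of 9 genes of pericellular proteolysis was followed in the human pancreatic ductal adenocarcinoma cell lines BxPC-3 and CFPAC-1: the plasminogen activator genes PLAT and PLAU, the urokinase receptor gene PLAUR, the inhibitor-family genes SERPINB5 and SLPI, the trypsin-like protease genes PRSS3, PRSS21 and ST14, and F2RL1, a receptor opened by such proteases. They are 9 of 60564 rows of the deposited expression table and were picked out by gene symbol. The members were chosen by their place in this network with their log2(FPKM + 1) levels, and the starvation and cell line contrasts of these libraries, already in view. Every value of the 9 genes below is therefore a description, and none of them is given as a test. The groups are BxPC-3 starved of serum for 48 h to raise primary cilia (induced), BxPC-3 in normal culture (control), CFPAC-1 starved in the same way (induced) and CFPAC-1 in normal culture (control), with 3 libraries each and 12 in all. Per the series text 78% of induced and 5% of control BxPC-3 cells carried a cilium, and 39% of induced and 7% of control CFPAC-1 cells. The effect of starvation and that of the cilium cannot be told apart, and the labels name no separate cultures, so the spread between libraries may be technical.

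Tissue-type plasminogen activator (PLAT) and urokinase (PLAU) cut plasminogen, a plasma protein made mainly in the liver, into plasmin, a protease that dissolves fibrin and attacks the matrix around cells. Urokinase works while bound to its receptor (PLAUR) on the cell surface, and serpins such as SERPINB2 trap the activators by a suicide mechanism. Matriptase (ST14) is a transmembrane protease of epithelia that activates pro-urokinase and the receptor encoded by F2RL1, and is held in check by the Kunitz-type inhibitors SPINT1 and SPINT2. Urokinase, its receptor and tissue-type activator are known to be made by pancreatic ductal tumours.

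Levels are FPKM, the fragments of a gene scaled by transcript length and by the library's mapped fragments, so they are per length and can be set side by side between genes. Read depth is unknown, and a value of 0 means only that the gene is listed at 0. The libraries labelled CFPAC-1 control 2 and 3 stood apart from the other 4 of their line. Across tested genes they correlated at r = 0.990 with each other and at a mean r of 0.803 with those 4, against 0.944 among the 4. In CFPAC-1 control 1, 2 and 3 the duct keratin KRT19 stood at 532, 7.42 and 7.67 FPKM and the epithelial adhesion gene EPCAM at 14.8, 0.963 and 1.04 FPKM. KRT8 was at a like level in all 3, with 274, 270.3 and 316 FPKM, as was KRT18 with 254, 318 and 311 FPKM, and KRT7 had 0.340, 2.005 and 1.92 FPKM. The starvation differences and calls in CFPAC-1 are therefore given with and without control 2 and 3, and in the second case the spread of the single control is taken from the other groups. Counts of libraries that do not overlap and the nearest profiles use all libraries. Of the 6 duct epithelial markers all but CDH1 were above 0.5 FPKM in at least 1 library of each group, and CDH1, the gene for E-cadherin, was below 1 FPKM in every CFPAC-1 library. The summed level of the 6 was 1393 to 1715 FPKM in induced and 1500 to 1803 FPKM in control BxPC-3, and 442.5 to 1037 FPKM in induced and 599 to 1075 FPKM in control CFPAC-1. Of 7 acinar markers, which matter for the trypsin genes, 6 were below 0.5 FPKM in every library, and the list summed to at most 2.91 FPKM, carried by PRSS1. The 4 endothelial markers summed to at most 0.621 FPKM, and the leukocyte genes PTPRC and CD3E were below 0.5 FPKM throughout. The 6 fibroblast markers summed to 26.0 to 110.0 FPKM in induced and 6.31 to 37.3 FPKM in control CFPAC-1, carried by LUM (25.5, 108 and 103.5 FPKM) in the induced libraries and in control 1 (36.8 FPKM) and by COL1A1 and COL3A1 in control 2 (4.275 and 1.98 FPKM) and control 3 (4.28 and 2.06 FPKM), and to at most 1.74 FPKM in BxPC-3. The 5 immune markers summed to 40.7 to 48.0 FPKM in induced and 6.67 to 12.9 FPKM in control CFPAC-1, carried by CD68, and to at most 6.98 FPKM in BxPC-3. The immune sum separated induced from control CFPAC-1, the fibroblast sum did not, control 1 lying above induced 1, and their part in the values below was not tested.

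Promoter windows from RefSeq (GRCh38.p14) are used for 6 of the 9 genes. The stretches of 250 bases before the start are shown because these genes go apart in the CFPAC-1 control libraries: SERPINB5, PRSS3 and PRSS21 were near 0 in control 2 and 3, PLAUR was low there, and PLAU and F2RL1 were at their highest. Capitals mark TGANTCA, the core read by AP-1 (the FOS and JUN factors), searched on both strands, where it reads the same. The windows are chr18:63476708-63476957 (plus strand) for SERPINB5, chr9:33795311-33795560 (plus) for PRSS3, chr16:2816987-2817236 (plus) for PRSS21, chr19:43670170-43670419 (minus) for PLAUR, chr10:73910882-73911131 (plus, the second of 2 listed starts) for PLAU and chr5:76818780-76819029 (plus) for F2RL1.
SERPINB5: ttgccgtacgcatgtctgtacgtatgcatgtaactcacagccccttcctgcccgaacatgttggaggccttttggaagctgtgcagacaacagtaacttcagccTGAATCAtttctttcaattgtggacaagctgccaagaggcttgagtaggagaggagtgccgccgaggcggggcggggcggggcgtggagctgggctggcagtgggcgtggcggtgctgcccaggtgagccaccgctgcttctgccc
PRSS3: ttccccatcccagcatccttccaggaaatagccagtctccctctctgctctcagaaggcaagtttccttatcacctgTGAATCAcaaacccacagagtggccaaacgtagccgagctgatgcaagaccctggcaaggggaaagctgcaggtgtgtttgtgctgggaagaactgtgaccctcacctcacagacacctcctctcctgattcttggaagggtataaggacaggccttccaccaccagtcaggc
PRSS21: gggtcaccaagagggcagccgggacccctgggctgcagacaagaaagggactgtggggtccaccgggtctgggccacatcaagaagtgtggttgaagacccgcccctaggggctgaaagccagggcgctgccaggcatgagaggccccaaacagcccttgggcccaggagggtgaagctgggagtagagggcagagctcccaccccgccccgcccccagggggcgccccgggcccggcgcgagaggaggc
PLAUR: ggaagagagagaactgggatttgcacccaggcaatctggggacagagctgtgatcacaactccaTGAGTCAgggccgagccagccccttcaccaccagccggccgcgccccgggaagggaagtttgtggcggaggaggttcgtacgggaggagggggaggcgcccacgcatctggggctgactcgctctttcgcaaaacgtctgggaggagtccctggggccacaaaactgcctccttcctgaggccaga
PLAU: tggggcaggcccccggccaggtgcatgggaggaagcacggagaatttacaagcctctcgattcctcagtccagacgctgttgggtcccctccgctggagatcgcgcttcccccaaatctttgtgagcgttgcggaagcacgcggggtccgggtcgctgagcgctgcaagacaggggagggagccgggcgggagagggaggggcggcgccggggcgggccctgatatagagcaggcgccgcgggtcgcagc
F2RL1: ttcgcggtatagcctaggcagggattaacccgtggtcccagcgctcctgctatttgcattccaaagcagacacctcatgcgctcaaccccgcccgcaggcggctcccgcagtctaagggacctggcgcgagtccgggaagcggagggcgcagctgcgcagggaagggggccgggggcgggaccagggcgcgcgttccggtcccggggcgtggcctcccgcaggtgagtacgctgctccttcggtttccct

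The searched window of 300 bases also takes in the first 50 bases after the start. AP-1 cores lay in the windows of PLAUR, SERPINB5 and PRSS3, with their first base at positions -186, -146 and -173 from the start, and 7.71% of 35116 RefSeq promoter windows hold one. None was found in the windows of PRSS21 and F2RL1 or at either start of PLAU. Of the genes near 0 in CFPAC-1 control 2 and 3, SERPINB5 and PRSS3 held the core and PRSS21 did not. PLAT, SLPI and ST14 were near 0 there too and have no window here. A link between these letters and the levels was not tested. GC boxes, GGGCGG on either strand, numbered 3 each in PLAU (second start), PRSS21 and F2RL1, 2 in SERPINB5 and 0 in PLAUR and PRSS3, against 45% of windows with at least 1. CpG pairs in the window numbered 31 in F2RL1, 28 at the second start of PLAU (5 at the first), 19 in PRSS21, 18 in PLAUR, 16 in SERPINB5 and 2 in PRSS3, with a median of 14 over all windows. A match is a run of letters and not a measured binding site.

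PLAT (chromosome 8, 42175233 to 42207724, GRCh38) was higher in starved cells of both lines. Its level was 36.1, 32.3 and 41.0 FPKM in induced libraries 1, 2 and 3 of BxPC-3, against 18.0, 27.4 and 26.5 FPKM in control 1, 2 and 3. In CFPAC-1 it was 85.2, 137 and 130.1 FPKM in the induced libraries, against 27.3, 0.0671 and 0.142 FPKM in control. Every induced library lay above every control library of its own line, and control 1 of CFPAC-1 fell among the BxPC-3 controls while control 2 and 3 were near 0. In such bulk libraries fewer cells that make a transcript and less of it per cell cannot be told apart. On the log2(FPKM + 1) scale the difference was 0.60 in BxPC-3, with a standard error of 0.96 from all 12 libraries and of 0.23 without CFPAC-1 control 2 and 3. CFPAC-1 showed 5.15 (SE 0.96), and 2.04 (SE 0.33) against control 1 alone. The means ± SD were 36.5 ± 4.34 FPKM in induced and 24.0 ± 5.21 FPKM in control BxPC-3, and 117 ± 28.1 FPKM in induced CFPAC-1 (n = 3 each).

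PLAU (chromosome 10, 73909177 to 73917497) overlapped between starved and control libraries in both lines. It stood at 117, 144 and 145 FPKM in induced BxPC-3, against 141, 183 and 180.3 FPKM in control, so the groups overlapped at control 1. Induced CFPAC-1 had 46.6, 31.5 and 29.1 FPKM, against 31.5, 259 and 258 FPKM in control. Control 1 of CFPAC-1 sat within the range of the starved cells, and control 2 and 3 were the highest of all 12 libraries. The log2 difference was -0.31 (SE 0.63; 0.21 without CFPAC-1 control 2 and 3) in BxPC-3 and -1.85 (SE 0.63) in CFPAC-1, where it was 0.14 (SE 0.30) against control 1 alone. The balance of the 2 activators, log2 of PLAT minus log2 of PLAU on the same scale, was -1.67, -2.12 and -1.80 in induced BxPC-3, against -2.91, -2.70 and -2.72 in control. In CFPAC-1 it was 0.86, 2.09 and 2.12 in the induced libraries, against -0.20, -7.93 and -7.83 in control. PLAU thus exceeded PLAT in every BxPC-3 library and PLAT exceeded PLAU in every starved CFPAC-1 library. In both lines the balance lay nearer to PLAT in each induced library than in each control. No other pairs of genes were set beside it, and this pair was picked with its values in view, so nothing is read from the order.

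The receptor gene PLAUR (chromosome 19, 43646095 to 43670547) had the narrowest range among starved CFPAC-1 libraries, 34.7, 34.3 and 33.45 FPKM, against 22.7, 3.89 and 3.19 FPKM in control 1, 2 and 3. In BxPC-3 it had 9.945, 19.45 and 19.9 FPKM in the induced libraries, against 15.15, 28.4 and 28.0 FPKM in control. Library 1 was the lowest of its group in both BxPC-3 groups, and the groups overlapped. The log2 difference was -0.52 (SE 0.55; 0.30 without CFPAC-1 control 2 and 3) in BxPC-3. In CFPAC-1 it was 2.16 (SE 0.55), and 0.57 (SE 0.42) against control 1 alone. Within library number 1 of BxPC-3 the difference was -0.56 and within numbers 2 and 3 it was -0.50, the closest pair of the 9 genes beside PLAU with -0.27 and -0.33.

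**Figure D1:**
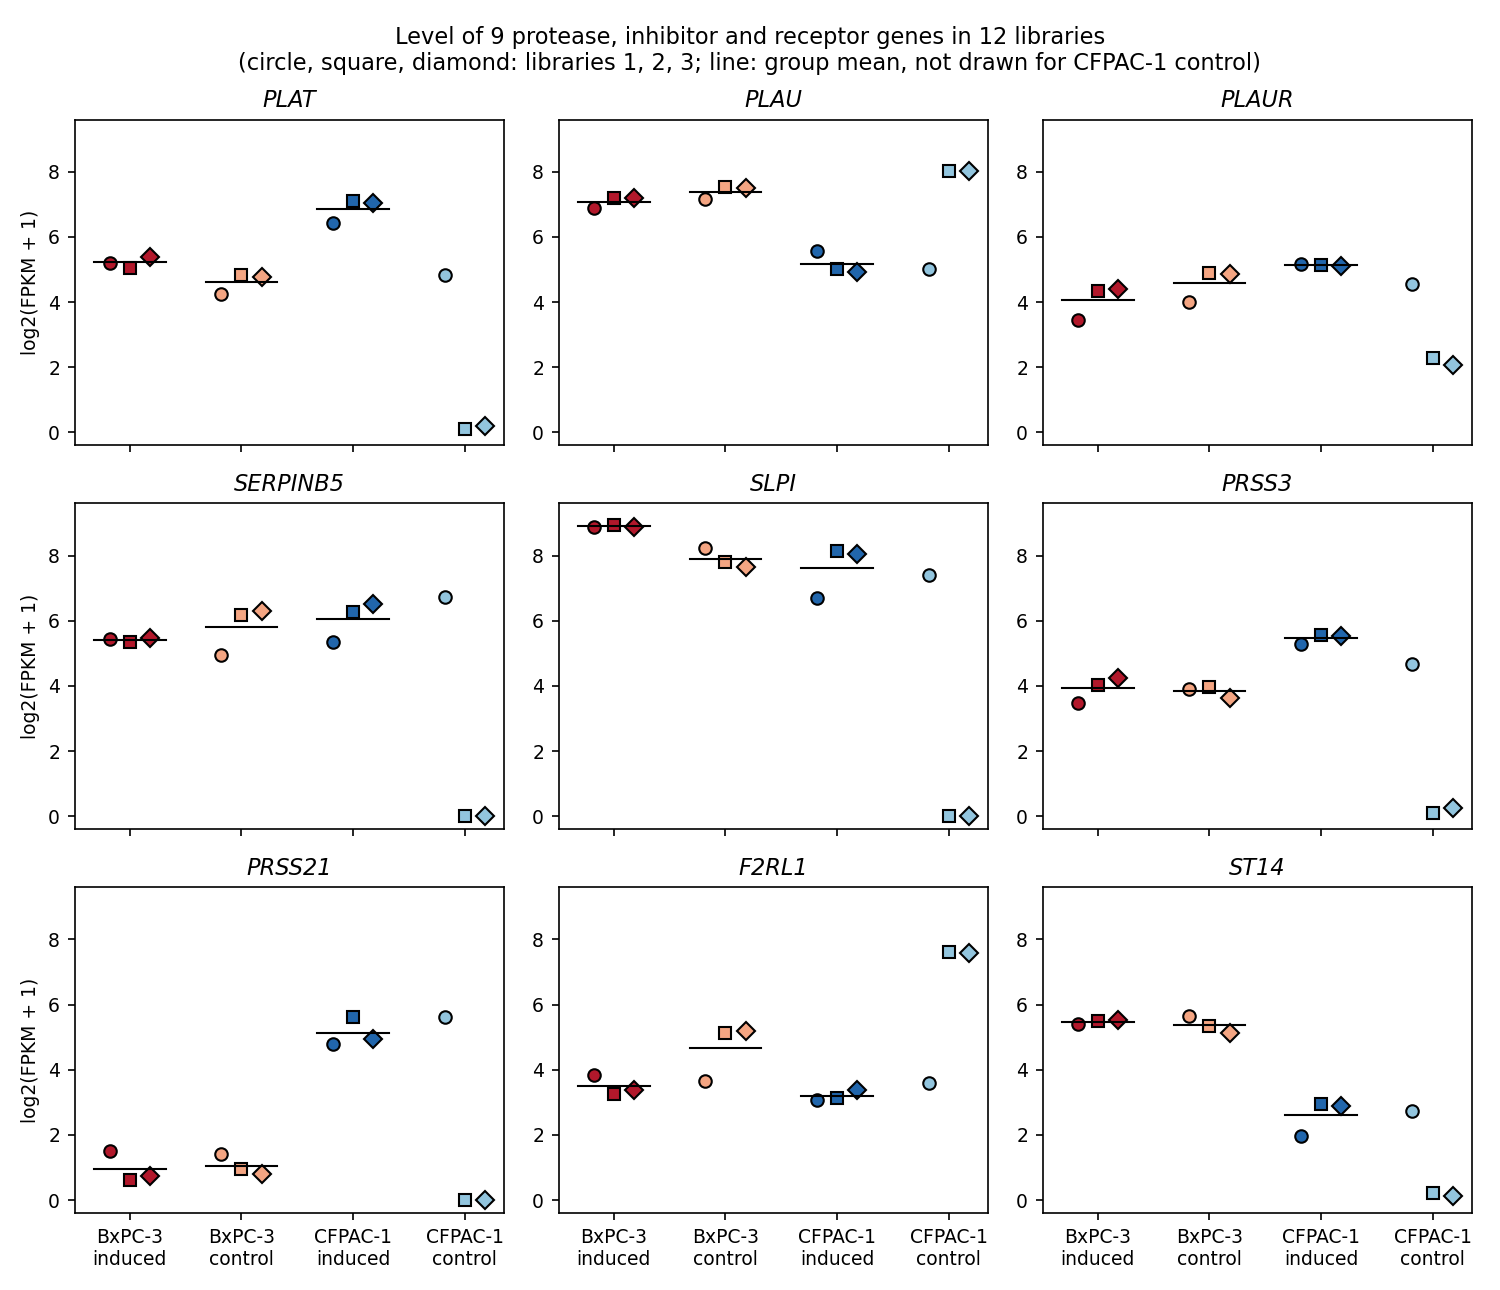
Level of each of the 9 genes as log2(FPKM + 1) on the y axis, by group on the x axis, with 1 point per library (circle, square and diamond for libraries 1, 2 and 3) and a line at the group mean, which is not drawn for CFPAC-1 control. In CFPAC-1 control the square and diamond lie near 0 for PLAT, SERPINB5, SLPI, PRSS3, PRSS21 and ST14 and above all other libraries for PLAU and F2RL1, while the circle lies nearer to the induced libraries.

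SERPINB5 (chromosome 18, 63476761 to 63505085) encodes maspin, a clade B serpin that does not inhibit serine proteases in the classical way. It stood at 42.65, 39.9 and 43.1 FPKM in induced BxPC-3, against 30.2, 71.4 and 78.5 FPKM in control, so the starved libraries were close together inside the spread of the controls. Induced CFPAC-1 had 39.85, 76.6 and 90.15 FPKM, against 106 FPKM in control 1, and the gene was listed at 0 in control 2 and 3. The log2 difference was -0.40 (SE 1.39; 0.38 without CFPAC-1 control 2 and 3) in BxPC-3, at 0.48 for library number 1 and -0.84 for numbers 2 and 3. In CFPAC-1 it was 3.80 (SE 1.39) and turned to -0.69 (SE 0.54) against control 1 alone.

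SLPI (chromosome 20, 45252239 to 45254564), the secretory leukocyte protease inhibitor that blocks neutrophil elastase, reached the highest level of the 9 genes. It stood at 468, 489.5 and 473.5 FPKM in induced BxPC-3, against 299, 220.3 and 202 FPKM in control (477 ± 11.1 and 240.3 ± 51.6 FPKM, SD, n = 3 each). All 3 starved libraries lay above all 3 controls. The log2 difference was 1.01 (SE 1.50; 0.34 without CFPAC-1 control 2 and 3), at 0.65 for library number 1 and 1.19 for numbers 2 and 3. Induced CFPAC-1 had 103, 282 and 263 FPKM, against 168 FPKM in control 1, and the gene was listed at 0 in control 2 and 3. Control 1 lay inside the starved range, so the log2 difference of 5.16 (SE 1.50) became 0.23 (SE 0.49) against control 1 alone.

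PRSS3 (chromosome 9, 33750466 to 33799231) encodes mesotrypsin, a trypsin that resists most protein trypsin inhibitors. It had 10.2, 15.5 and 18.0 FPKM in induced BxPC-3, against 14.0, 14.7 and 11.4 FPKM in control, with no order between the groups. In induced CFPAC-1 it had 37.75, 46.7 and 45.6 FPKM, against 24.3, 0.0711 and 0.193 FPKM in control, and every starved library lay above every control. BxPC-3 differed by 0.09 on the log2 scale (SE 0.91; 0.21 without CFPAC-1 control 2 and 3). The CFPAC-1 difference was 3.79 (SE 0.91), and 0.81 (SE 0.30) against control 1 alone. Of the runs of 50 bases in its transcripts, 4.06% also occur in other genes, among them PRSS2, the largest share of the 9 genes, so a small part of its reads could be split. PRSS1 and PRSS2, the pancreatic cationic and anionic trypsinogens, had a listed value of 0 throughout CFPAC-1. In BxPC-3 PRSS2 had 0.553, 5.50 and 5.585 FPKM in the induced libraries, against 1.47, 0.398 and 0.664 FPKM in control.

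PRSS21 (chromosome 16, 2817180 to 2826304), the gene of the membrane-anchored protease testisin, was low in every BxPC-3 library. It stood at 1.82, 0.545 and 0.671 FPKM in induced and at 1.69, 0.949 and 0.726 FPKM in control BxPC-3. Induced CFPAC-1 had 26.75, 48.2 and 30.1 FPKM, against 48.6 FPKM in control 1, and the gene was listed at 0 in control 2 and 3. BxPC-3 had a log2 difference of -0.10 (SE 1.15; 0.30 without CFPAC-1 control 2 and 3). For CFPAC-1 it was 3.25 (SE 1.15) and turned to -0.51 (SE 0.42) against control 1 alone.

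ST14 (chromosome 11, 130159562 to 130210376), the matriptase gene, was even across BxPC-3, at 41.0, 44.0 and 44.8 FPKM in induced and 48.7, 39.4 and 34.05 FPKM in control libraries. It was low in CFPAC-1, with 2.93, 6.715 and 6.41 FPKM in the induced libraries, against 5.65, 0.171 and 0.0927 FPKM in control. The log2 difference was 0.10 (SE 0.56; 0.26 without CFPAC-1 control 2 and 3) in BxPC-3 and 1.57 (SE 0.56) in CFPAC-1, or -0.13 (SE 0.36) against control 1 alone. F2RL1 (chromosome 5, 76818933 to 76835315), which encodes protease-activated receptor PAR2, had 13.2, 8.54 and 9.45 FPKM in induced BxPC-3, against 11.5, 34.0 and 35.5 FPKM in control. Control 1 lay among the starved libraries and control 2 and 3 far above them, so the log2 difference of -1.17 (SE 0.86; 0.37 without CFPAC-1 control 2 and 3) was 0.18 within library number 1 and -1.84 within numbers 2 and 3. Induced CFPAC-1 had 7.44, 7.84 and 9.38 FPKM, against 11.2, 193 and 191 FPKM in control. All starved libraries were lower than all controls there, with a log2 difference of -3.07 (SE 0.86), and of -0.41 (SE 0.52) against control 1 alone.

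**Figure D2:**
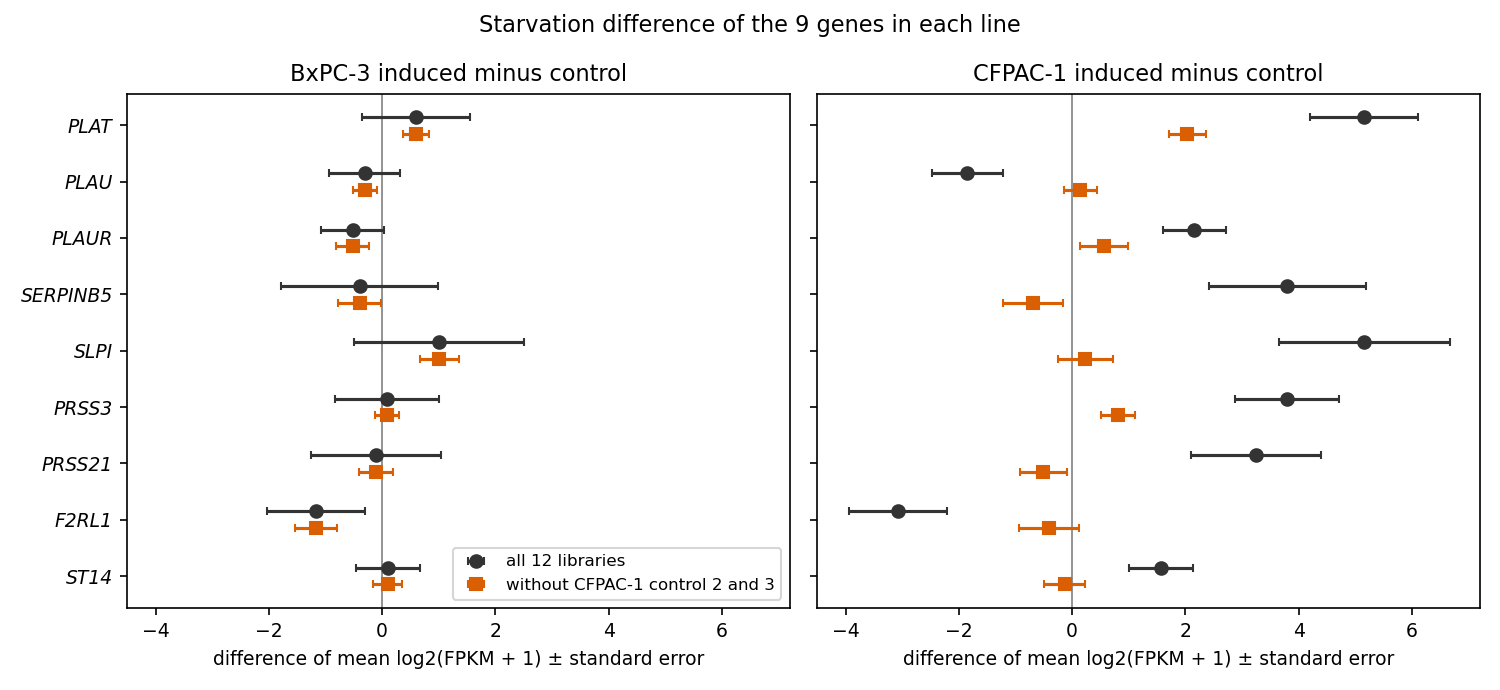
Induced minus control difference of the mean log2(FPKM + 1) on the x axis for each of the 9 genes (rows), in BxPC-3 (left) and CFPAC-1 (right), with bars of 1 standard error from the limma fit of all 12 libraries (circles) and without CFPAC-1 control 2 and 3 (squares). In CFPAC-1 the circles spread from -3.07 for F2RL1 to 5.16 for SLPI and the squares from -0.69 for SERPINB5 to 2.04 for PLAT, and in BxPC-3 the points are the same in both fits with shorter bars for the squares.

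Counted with limma at a Benjamini-Hochberg adjusted p under 0.05, 0 of the 9 genes passed in BxPC-3, against 0.334% of 12860 tested genes (43 genes, and 1096 at an unadjusted p under 0.05). The starved and control libraries of BxPC-3 did not overlap for 2 of the 9, PLAT and SLPI, nor for 17.2% of tested genes. In CFPAC-1, 5 of the 9 passed with all libraries (PLAT, PLAUR, PRSS3 and SLPI higher, F2RL1 lower), against 16.6% of tested genes, and 4 did not overlap (PLAT, PLAUR and PRSS3 above, F2RL1 below), against 31.6%. The 2138 tested genes past the threshold in CFPAC-1 were 1010 higher and 1128 lower. With FPKM rescaled to a common total without mitochondrial genes they were 774 higher and 1765 lower, and 6 of the 9 passed, PLAU being added as lower. Without control 2 and 3 PLAT alone passed in CFPAC-1, against 1.73% of tested genes. The difference between the lines in the starvation response passed for 0 of the 9 genes, against 2.45% of tested genes, and for 0 without control 2 and 3, against 0.428%. Since these contrasts were in view when the genes were picked, the counts describe the 9 genes and nothing is read from them. In BxPC-3 the standard errors shrank without CFPAC-1 control 2 and 3, since the spread is shared by the groups, but still 0 of the 9 passed.

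The split within CFPAC-1 control was a shared feature of most of these genes. PLAT, SERPINB5, SLPI, PRSS3, PRSS21 and ST14 were at most 0.2 FPKM in control 2 and 3 and at least 2 FPKM in the other 4 CFPAC-1 libraries, as were 151 tested genes (1.17%). The genes were picked with these levels in view, and the limit of 0.2 FPKM lies just above PRSS3 at 0.193 FPKM in control 3. No enrichment is therefore read from the share of 1.17%. PLAU and F2RL1 were several times higher in control 2 and 3 than in any of the other 4 CFPAC-1 libraries, and PLAUR was lower in control 2 and 3 without reaching 0. Within the pathway SERPINE2, a serpin of the cell surface that inhibits urokinase and thrombin, had a pattern like that of PLAT, with 82.3, 153 and 167 FPKM in induced CFPAC-1, against 47.8, 0.309 and 0.517 FPKM in control. Of the duct markers above, KRT19 and EPCAM were lower in control 2 and 3 than in control 1, KRT8 and KRT18 were not, and KRT7 was slightly higher, and the part of this in the values of the 9 genes was not tested.

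Between the starved lines, BxPC-3 had the higher level of PLAU, SLPI and ST14 and CFPAC-1 that of PLAT, PLAUR, PRSS3 and PRSS21, with no overlap of the libraries for these 7 genes, against 54.5% of tested genes. The log2 difference, BxPC-3 minus CFPAC-1, was 2.86 for ST14 (SE 0.56), 1.92 for PLAU (SE 0.63) and 1.27 for SLPI (SE 1.50). It was -4.17 for PRSS21 (SE 1.15), -1.64 for PLAT (SE 0.96), -1.54 for PRSS3 (SE 0.91) and -1.07 for PLAUR (SE 0.55). SERPINB5 (-0.62, SE 1.39) and F2RL1 (0.29, SE 0.86) overlapped. With all libraries in the fit PLAU, ST14 and PRSS21 passed the threshold, against 36.2% of tested genes, and without CFPAC-1 control 2 and 3, which are not part of this contrast but widen its error, all 7 passed, against 44%. In control cells PLAT, SLPI and ST14 passed with all libraries, each higher in BxPC-3, against 26.2% of tested genes. With the library number as a block, SLPI and ST14 passed and PLAT did not (2 of the 9), against 3606 of 12860 tested genes. Against CFPAC-1 control 1 alone PLAU and ST14 (higher) and PRSS21 (lower) passed, against 27.5%.

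**Figure D3:**
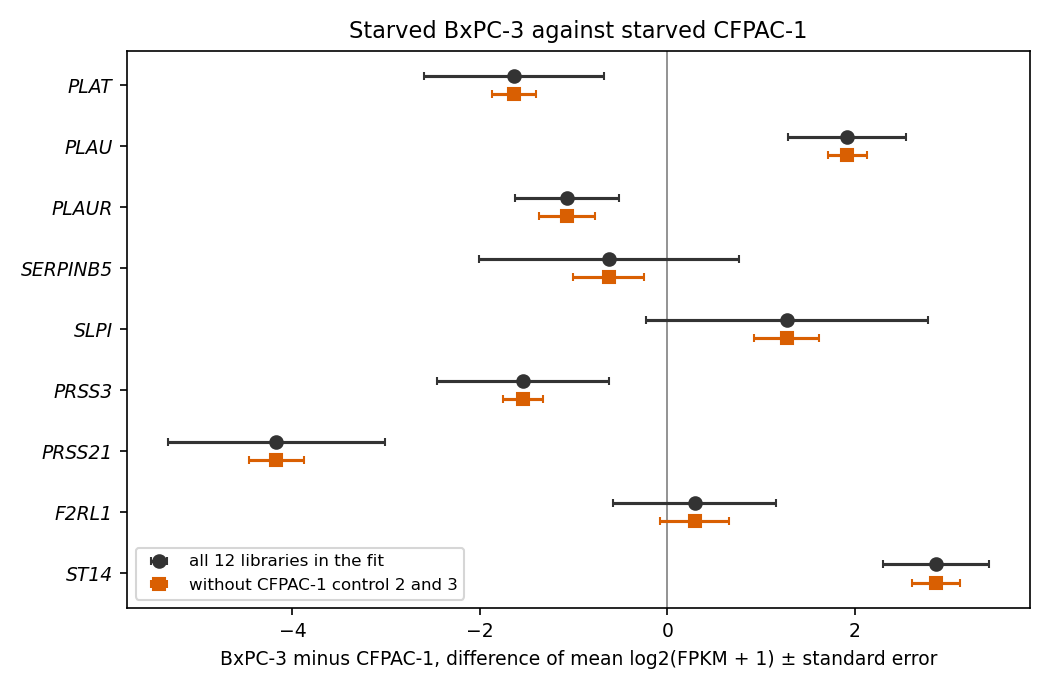
Difference of mean log2(FPKM + 1) between starved BxPC-3 and starved CFPAC-1 on the x axis for each of the 9 genes (rows), with bars of 1 standard error from the fit of all 12 libraries (circles) and of 10 libraries without CFPAC-1 control 2 and 3 (squares). PRSS21 at -4.17 and ST14 at 2.86 mark the ends, and the squares lie at the same values with shorter bars.

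The order of the 4 groups by mean FPKM of all their libraries differed from gene to gene. For PLAT it ran from CFPAC-1 induced over BxPC-3 induced and BxPC-3 control down to CFPAC-1 control, with no overlap between the starved lines or between induced and control BxPC-3. PRSS3 had the same order, and PLAUR and SERPINB5 had BxPC-3 control ahead of BxPC-3 induced. PLAUR and PRSS3 were parted from their neighbours only at the top, and SERPINB5 nowhere. PLAU and F2RL1 ran from CFPAC-1 control over BxPC-3 control and BxPC-3 induced down to CFPAC-1 induced, with no overlap only between the last pair for PLAU and with overlap between all neighbours for F2RL1. SLPI and ST14 ran from BxPC-3 induced over BxPC-3 control and CFPAC-1 induced down to CFPAC-1 control, parted at the first step for SLPI and at the second for ST14. For PRSS21 the CFPAC-1 groups came first and all neighbours overlapped, CFPAC-1 control spanning 0 to 48.6 FPKM. With control 1 standing for CFPAC-1 control, that group kept its place for SLPI alone. It then came last for PLAU and next after BxPC-3 control for F2RL1. It came ahead of all groups for SERPINB5 and PRSS21, next after CFPAC-1 induced for PRSS3, just above BxPC-3 control for PLAT, between BxPC-3 control and BxPC-3 induced for PLAUR, and just above CFPAC-1 induced for ST14.

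Of 95 other genes listed for this network, 47 were tested. The lists were chosen with earlier results of these data known. Their counts, shares and p-values here and below are therefore descriptions, and no enrichment is read from them. In starved BxPC-3, 5 rose and 0 fell (10.6% of the 47, against 0.334% of all tested genes), with a median log2 difference of 0.08, against 0.06 over all tested genes. WFDC2 and WFDC5 share the WAP domain of SLPI. WFDC2 had 56.9, 99.3 and 94.5 FPKM in induced BxPC-3, against 31.5, 36.7 and 37.3 FPKM in control, a log2 difference of 1.19 (limma, Benjamini-Hochberg adjusted p = 0.0417). WFDC5, at a low level, had 2.33, 2.02 and 2.65 FPKM in induced BxPC-3, against 0.365, 0.323 and 0.226 FPKM in control (1.35; limma adjusted p = 0.00629). SERPINB7, a clade B serpin of stratified epithelia, had 14.4, 20.3 and 20.5 FPKM, against 4.63, 6.67 and 6.69 FPKM (1.47; limma adjusted p = 0.00801). TFPI2, a Kunitz inhibitor of plasmin and trypsin, had 31.2, 34.2 and 39.9 FPKM in induced BxPC-3, against 16.9, 9.88 and 10.75 FPKM in control (1.45; limma adjusted p = 0.00876). SERPING1, the C1 inhibitor of complement, had 1.68, 1.94 and 1.80 FPKM, against 0.464, 0.616 and 0.543 FPKM (0.86; limma adjusted p = 0.0297). The starved libraries lay above all controls for each of the 5 genes, while 17.2% of tested genes did not overlap in either direction. The 5 were named for passing this same contrast, so the lack of overlap adds no support. All 5 are at or near 0 in CFPAC-1. With BxPC-3 fitted alone, so that CFPAC-1 added nothing to the estimate of spread, WFDC5 passed (limma adjusted p = 0.0393) and the other 4 had adjusted p-values of 0.0862 for SERPING1, 0.106 for SERPINB7, 0.149 for TFPI2 and 0.188 for WFDC2.

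PI3, the elastase inhibitor elafin and the closest relative of SLPI on the list, had 490.2, 584 and 594 FPKM in induced BxPC-3, against 116, 28.0 and 30.05 FPKM in control. The log2 difference of 3.56 did not pass with all libraries (limma, Benjamini-Hochberg adjusted p = 0.101) and passed without CFPAC-1 control 2 and 3 (limma adjusted p = 0.0168), while WFDC2 lost its call there (limma adjusted p = 0.0574), so the count was again 5. Of the 11 plasminogen system genes tested beside the members, 0 passed in starved BxPC-3. SERPINB2, which inhibits urokinase, had 96.5, 515 and 478 FPKM in induced BxPC-3, against 76.2, 905 and 892 FPKM in control, with library 1 lowest in both groups. PLG, the plasminogen gene, was listed at 0 in all 12 libraries.

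In starved CFPAC-1, 13 of the 47 rose and 0 fell with all libraries (27.7%, against 16.6% of all tested genes; median 0.09, against -0.09). They were SERPINE2, LRP1, SERPINF2, KLK10, KLK8, KLK1, SERPINB1, PI3, WFDC3, F3, F10, THBD and TMPRSS3. The largest log2 differences were 4.81 for SERPINE2 (limma, Benjamini-Hochberg adjusted p = 0.0145), 4.64 for THBD, the thrombin receptor thrombomodulin (limma adjusted p = 0.0326), and 4.03 for KLK10, a secreted kallikrein-related protease (limma adjusted p = 0.0174). LRP1, the endocytic receptor that clears activator and inhibitor complexes, rose by 2.60 (limma adjusted p = 0.0400). Against control 1 alone these differences were 1.41 for SERPINE2, 0.67 for THBD, 1.02 for KLK10 and 0.71 for LRP1, and none of these passed. Without control 2 and 3, which leaves 1 control library, all of the 13 but KLK8, another kallikrein-related protease, lost their call. The share of the 47 that passed there was near that of all tested genes, so nothing is read from the call of KLK8. KLK8 had 1.31, 1.89 and 1.97 FPKM in induced CFPAC-1, against 0.142 FPKM in control 1, and was listed at 0 in control 2 and 3. Its log2 difference was 1.37 from all libraries and 1.25 against control 1 alone.

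Between the starved lines 33 of the 47 listed genes passed. In starved BxPC-3 against starved CFPAC-1, 23 of the 47 genes were higher and 10 lower (70.2%, against 36.2% of all tested genes), with a median of 0.68, against 0.12. The inhibitors of matriptase were higher in BxPC-3, as was ST14. SPINT1 had 101, 96.4 and 97.6 FPKM in starved BxPC-3, against 0.931, 1.11 and 1.26 FPKM in starved CFPAC-1 (log2 difference 5.57; limma, Benjamini-Hochberg adjusted p = 9.55e-08). SPINT2 had 107, 117 and 113.5 FPKM, against 17.7, 21.9 and 20.1 FPKM (2.45; limma adjusted p = 0.00488). SERPINE2 was lower in starved BxPC-3, with 6.73, 3.54 and 4.07 FPKM, against 82.3, 153 and 167 FPKM (-4.52; limma adjusted p = 0.00655). SERPINB2 had a listed value of 0 in all 6 CFPAC-1 libraries. Of the 9 clade B serpins other than SERPINB5, 6 were higher in starved BxPC-3 and 0 lower. F3, tissue factor, the trigger of coagulation, had 528, 707.5 and 714 FPKM in starved BxPC-3, against 44.3, 31.8 and 30.0 FPKM in starved CFPAC-1 (4.17; limma adjusted p = 0.00348).

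**Figure D4:**
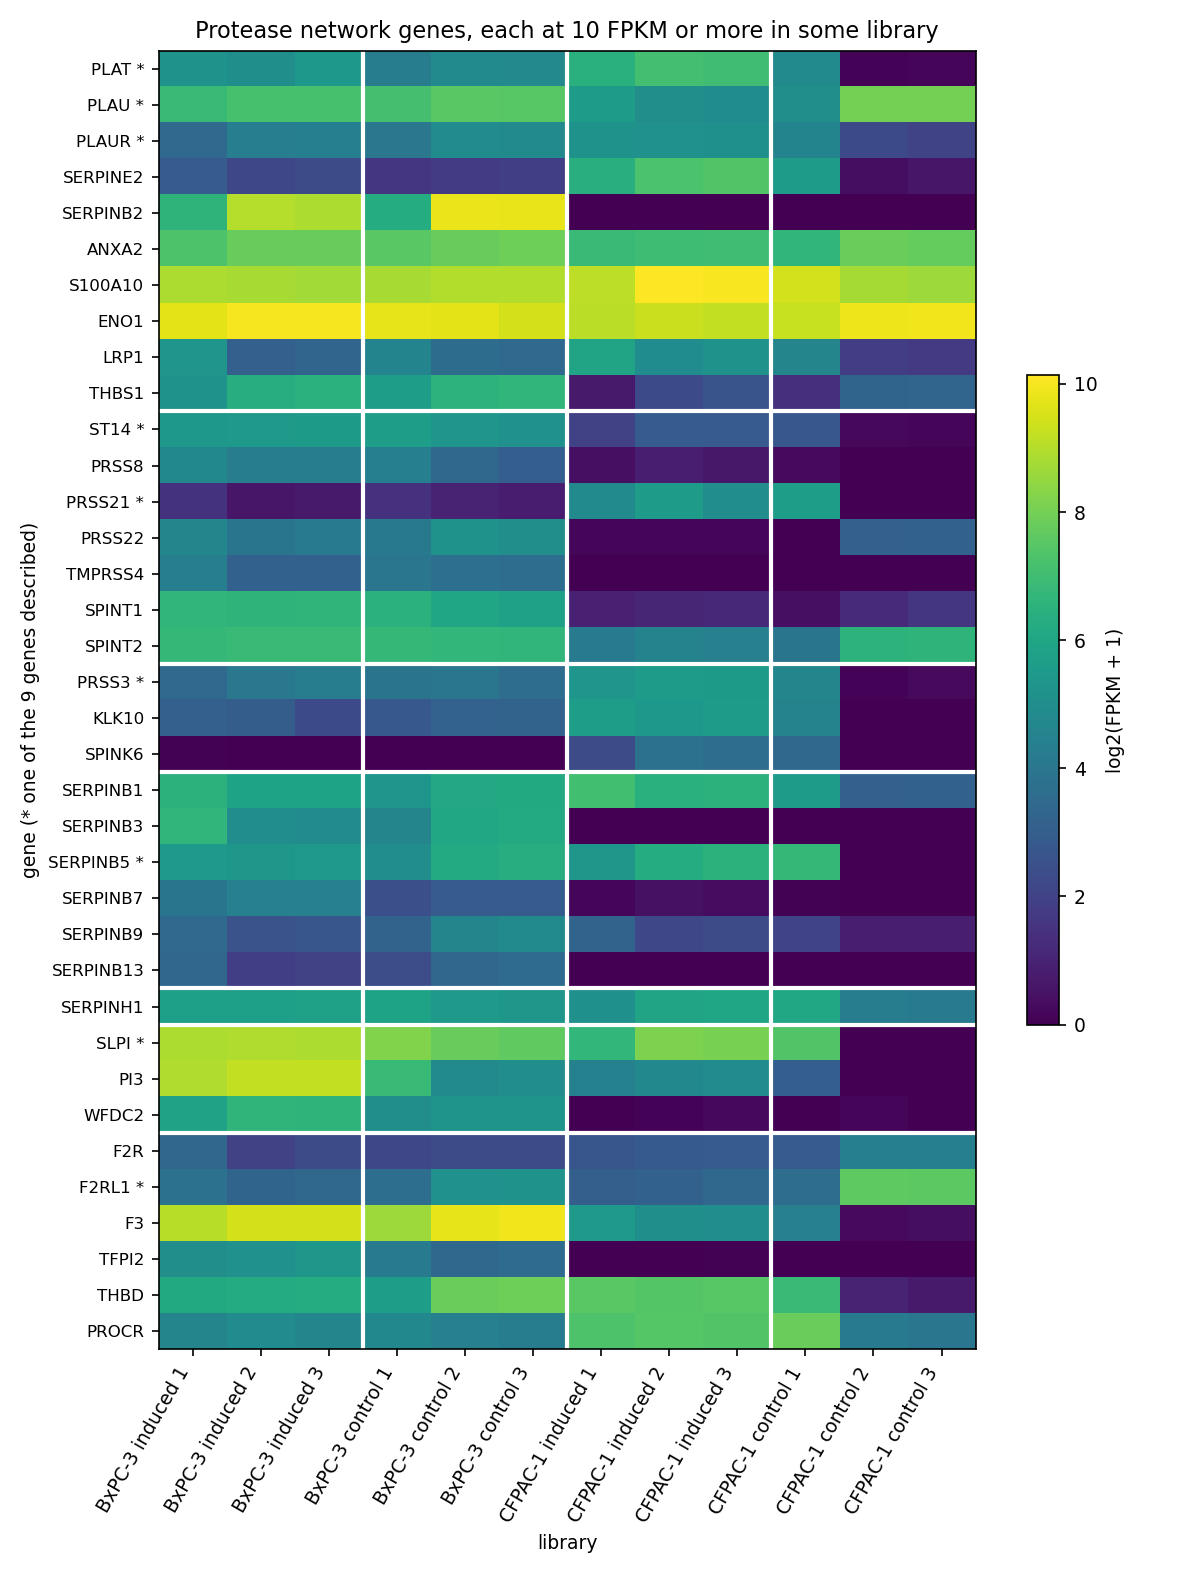
Level as log2(FPKM + 1) in colour for 36 listed genes with at least 10 FPKM in any library (rows, an asterisk marks the genes described one by one, white lines part the lists) in each of the 12 libraries (columns). SERPINB2, SPINT1 and WFDC2 are bright in all BxPC-3 columns and dark in all CFPAC-1 columns, and the columns of CFPAC-1 control 2 and 3 are dark for PLAT, SLPI, SERPINB5 and PRSS3 and bright for PLAU and F2RL1.

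The profiles most like each of the 9, by the root mean square difference of log2(FPKM + 1) over the 12 libraries after each gene was centred on its own mean, were close for most. The nearest of all tested genes were PRSS3 to PLAT (0.59, where PLAT itself spread by 2.18 about its mean), TCF7L1 to PLAU (0.25 of 1.14), KIAA0040 to PLAUR (0.34 of 1.02), THBD to SERPINB5 (0.53 of 2.25) and ALDH3A1 to SLPI (0.65 of 3.07). ITGB4 was nearest to PRSS3 (0.38 of 1.73), USH1C to PRSS21 (0.44 of 2.17), WNT9A to F2RL1 (0.44 of 1.58) and MMP14, a membrane-anchored matrix protease, to ST14 (0.27 of 1.99). Among the next nearest were ITGB4 for PLAT, FUT4 and NKD2 for PLAU, TGM2 for PLAUR, BST2 for SERPINB5, COL17A1 and KRT19 for SLPI, PLEK2 for PRSS3, HKDC1 for PRSS21, TIMM50 for F2RL1 and TSPAN1 for ST14. The 12 libraries share 4 groups, and CFPAC-1 control 2 and 3 carry much of each spread, so the likeness describes these libraries.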

How the data were processed

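TRIzol RNA was made into Illumina libraries, per the labels' protocols. The authors deposited 1 table of log2(FPKM + 1) values, per the file headers, for 60564 genes and 12 libraries. FastQC, StringTie and GRCh38 appear in the submitters' processing notes, with no versions. The aligner, annotation and strand setting were not given in the sources used here, so reads of PLAU, PRSS3 and PRSS21 cannot be told apart from those of genes overlapping them on the opposite strand. PLAUR, SERPINB5 and PRSS3 also overlap annotated noncoding or pseudogene entries on the same strand, which a strand setting would not part. No counts are given and depth is unknown, which leaves no counting interval. FPKM depends on the total of a library, of which mitochondrial genes took 11.6% to 34.0%.

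FPKM was recovered by undoing the log2. Genes of FPKM at least 1 in at least 3 of 12 libraries were tested (12860, all 9 described among them) on the log2(FPKM + 1) scale with limma 3.58.1 (R 4.3.3), which understates changes of low genes. The fit had 4 group means and 8 residual degrees of freedom, was two-sided, and was adjusted by Benjamini-Hochberg over all tested genes with a threshold of 0.05. A run on simulated data used the spread of BxPC-3 for all groups and held no split within CFPAC-1 control. It therefore does not show how the fit behaves under that split. The 9 genes and all gene lists were chosen with earlier results of these data known. Genes outside the 9 were named by rule: those past the threshold in a starvation contrast (up to 4 per list), those of highest level (up to 3 per list), and SERPINB2, the trypsinogens and the matriptase inhibitors. Some listed genes are not reported here by name. From the rest, the text gives values for the ones closest to the 9. Gene coordinates are from GENCODE release 29 (96.5% of identifiers matched), 1-based on GRCh38, and promoters from RefSeq GRCh38.p14. Alternatives were a pseudocount of 0.1, no filter, a mean FPKM of at least 5, quantile normalization, FPKM rescaled without mitochondrial genes, an intensity trend, each line alone, a replicate block, and leaving out libraries. Deviations from the group means over tested genes were correlated between libraries. Same-numbered libraries 1, 2 and 3 of the lines had 0.287, 0.275 and 0.125 in induced cells. In control cells they had 0.162, 0.119 and 0.119. CFPAC-1 number 2 with BxPC-3 number 3, and 3 with 2, had 0.181 and 0.139 in induced cells. In control cells these had 0.124 and 0.116. Within a condition, library 1 was negatively correlated with libraries 2 and 3 of the other line. Deviations cancel within each group, so these negative values are no evidence beyond the positive ones. One-to-one pairs of numbers 2 and 3 were not shown. Same-numbered induced and control libraries had 0.151, 0.110 and 0.0535 in BxPC-3, where control 2 with induced 3 had 0.152. In CFPAC-1 they had -0.0617, -0.0198 and -0.0798. The replicate block is therefore an alternative only. The labels do not say what a number shares.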

Additional observations from a re-analysis of the deposited data

Results flagged for a closer look

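The difference of the starvation changes, BxPC-3 minus CFPAC-1, was tested for every gene (limma, Benjamini-Hochberg adjusted p under 0.05 over 12860 genes). With all libraries it passed for 7 of the 47 tested listed genes (14.9%) and for 0 of the 9 genes described, against 2.45% of all tested genes (315). The lists were chosen with earlier results known, so no enrichment is read from these counts. The difference was positive for TFPI2 at 1.43, WFDC5 at 1.20, SERPINB7 at 1.17 and SERPING1 at 0.99, which rose in starved BxPC-3 and lie at or near 0 in CFPAC-1. It was negative for F10 at -1.50, KLK8 at -1.49 and TMPRSS3 at -1.11, which rose in starved CFPAC-1. In BxPC-3 these genes were near 0, reaching at most 0.0944 FPKM for F10, 0.192 FPKM for KLK8 and 0.347 FPKM for TMPRSS3. F10 also lay higher in every starved than in every control BxPC-3 library, with means of 0.0664 against 0.00568 FPKM. SERPINB7 and WFDC5 also lay higher in every starved than in every control CFPAC-1 library. Their means there were 0.257 against 0.0146 FPKM and 0.108 against 0 FPKM. At such levels the 1 added before the log2 flattens a difference. Without CFPAC-1 control 2 and 3 none of the 7 passed, with limma adjusted p-values of 0.106 for TFPI2, 0.0706 for WFDC5, 0.140 for SERPINB7, 0.135 for SERPING1, 0.198 for F10, 0.0634 for KLK8 and 0.172 for TMPRSS3.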

How the results depend on the processing

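CFPAC-1 control 2 and 3 set most values of that line. Without both, the count of the 9 genes past the threshold (limma, Benjamini-Hochberg adjusted p under 0.05) was 1 in place of 5 for CFPAC-1 starvation and 7 in place of 3 between the starved lines. Differences of opposite sign then were 0.14 for PLAU, -0.69 for SERPINB5, -0.51 for PRSS21 and -0.13 for ST14 under CFPAC-1 starvation. For the difference of the starvation changes they were -0.45 for PLAU, 0.29 for SERPINB5, 0.78 for SLPI, 0.40 for PRSS21, -0.76 for F2RL1 and 0.23 for ST14. Between the control lines they were -0.20 for PLAT, -0.92 for SERPINB5, -0.82 for PRSS3 and 1.05 for F2RL1. With no filter on low values the count was 1 for CFPAC-1 starvation, 1 between starved and 1 between control lines, against 1617, 5381 and 3617 of 37114 genes. With each line fitted alone it was 0 for CFPAC-1, against 364 of 12860 tested genes. Quantile normalization gave -0.0134 for PRSS3, BxPC-3 induced minus control, and a pseudocount of 0.1 gave PRSS21 0.56 between control lines. Leaving out 1 library at a time moved the count between 1 and 9 for CFPAC-1 starvation and between control lines, between 0 and 9 for the difference of the changes, and between 1 and 7 for the starved lines, each highest without CFPAC-1 control 1. Without that library 5403 of 12860 tested genes passed for CFPAC-1 starvation and 4818 between control lines. For the difference of the changes 4148 passed then, and for the starved lines 6078. For CFPAC-1 starvation the count of the 9 was 1 or 2 without any 1 of CFPAC-1 control 2, control 3 and the induced libraries. Of all tested genes 506 to 1965 passed there. The count of the 9 was 3 when any 1 of the BxPC-3 libraries numbered 2 or 3 was left out, against 1438 to 1571 tested genes. It was 1 between starved lines without CFPAC-1 induced 2 or BxPC-3 induced 2, against 3569 and 3512 tested genes. Between control lines it was 1 without CFPAC-1 control 2, control 3 or any BxPC-3 control, against 2238 to 3237. The differences then ran from -0.63 to 0.87 for PLAU and from -1.76 to 1.06 for PRSS21 between control lines, and in BxPC-3 from -0.076 to 0.31 for PRSS3, from -0.37 to 0.08 for PRSS21 and from -0.019 to 0.23 for ST14. In BxPC-3 starvation the count was 0 under every alternative run. The calls of WFDC2, SERPING1, SERPINB7 and TFPI2 there were lost when any 1 BxPC-3 library numbered 2 or 3 was left out, those of WFDC2 and SERPING1 also when any 1 CFPAC-1 library numbered 2 or 3 was, and that of WFDC5 without BxPC-3 control 3 (adjusted p = 0.0530). With the replicate block the counts were 0, 5, 0, 3 and 2 for BxPC-3, CFPAC-1, the difference, the starved and the control lines. Of 12860 tested genes 33, 2428, 306, 4881 and 3606 passed there. The block ended the call of PLAT between the control lines (limma adjusted p = 0.0579) and no other call of the 9 genes. Over all tested genes the difference of the changes passed for 172 positive and 143 negative, against 90 and 160 after quantile normalization and 273 and 136 after rescaling without mitochondrial genes. Quantile normalization put the median of all tested genes at 0.0008 between starved lines and at 0.06 for the difference of the changes, in place of 0.12 and 0.16. The cause of these shifts was not tested. Unknown depth limits all values near 0.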
